A study of Homo sapiens with 6 samples.

Results

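The genes described here are 40 genes of autophagy and the lysosome, taken by gene symbol from the 56303 rows of a count table. The list was chosen with earlier results of these data known. All 40 were among the 18243 genes with enough counts to be tested. They fall into 10 groups by role, from the kinases that start autophagy to the enzymes that digest its cargo. RNA was sequenced from SW480 cells, a human colon adenocarcinoma line, and the comparison asks which transcripts and splicing events depend on RBM39, an RNA-binding splicing factor. Cells carried a lentiviral non-silencing hairpin (shCtrl) or a hairpin against RBM39 (shRBM39), each with 3 libraries from replicate experiments. The study's methods describe stable clonal lines selected with puromycin, so a difference between clones and the action of the hairpin cannot be told apart.

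Autophagy encloses cytoplasm in a double membrane, the autophagosome, and delivers it to the lysosome for digestion. A kinase complex around ULK1 starts the process, a lipid kinase complex marks the site with phosphatidylinositol 3-phosphate (PI3P), and a chain of enzymes attaches ubiquitin-like proteins of the ATG8 family to the growing membrane. The transcription factors TFEB and TFE3 drive many lysosomal and autophagy genes when nutrients run short, and colon cancer cells, like other tumour cells, use the pathway to recycle their own components.

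Of the 40 genes, 3 had a record in the deposited list of splicing events, and the exons of these records are shown first because they are the only places where the list marks a change in transcript structure. BECN1 encodes Beclin 1, the scaffold of the lipid kinase complex. Its exons 5 (chr17:42818787-42818877, 91 bases), 10 (chr17:42813948-42814008, 61 bases) and 11 (chr17:42811655-42811797, 143 bases) lie on the minus strand of GRCh38 and are coding. ATG16L1 steers the lipidation of the ATG8 family to the membrane, and its coding exon 8 (chr2:233273721-233273777, plus strand) has 57 bases. ATG4B is a protease that trims the ATG8 family, and its coding exons 3 (chr2:241651264-241651335, 72 bases) and 4 (chr2:241653512-241653610, 99 bases) lie on the plus strand. Exon numbers follow the canonical GENCODE transcript. The exon is in capitals and the 20 intron bases on each side are in lower case.
BECN1 exon 5: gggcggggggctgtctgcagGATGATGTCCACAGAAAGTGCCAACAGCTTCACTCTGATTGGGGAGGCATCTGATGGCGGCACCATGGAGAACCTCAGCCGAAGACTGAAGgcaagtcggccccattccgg
BECN1 exon 10: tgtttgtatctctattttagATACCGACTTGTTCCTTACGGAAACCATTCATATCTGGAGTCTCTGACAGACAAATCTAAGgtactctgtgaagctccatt
BECN1 exon 11: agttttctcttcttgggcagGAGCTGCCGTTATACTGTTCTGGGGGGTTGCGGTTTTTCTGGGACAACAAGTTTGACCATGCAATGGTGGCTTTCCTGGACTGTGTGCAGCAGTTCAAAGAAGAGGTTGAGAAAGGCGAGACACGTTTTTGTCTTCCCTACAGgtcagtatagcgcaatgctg
ATG16L1 exon 8: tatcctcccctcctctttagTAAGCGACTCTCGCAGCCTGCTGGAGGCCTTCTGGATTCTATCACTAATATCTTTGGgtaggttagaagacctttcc
ATG4B exon 3: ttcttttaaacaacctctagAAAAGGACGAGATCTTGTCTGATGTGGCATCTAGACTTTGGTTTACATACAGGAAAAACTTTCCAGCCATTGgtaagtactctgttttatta
ATG4B exon 4: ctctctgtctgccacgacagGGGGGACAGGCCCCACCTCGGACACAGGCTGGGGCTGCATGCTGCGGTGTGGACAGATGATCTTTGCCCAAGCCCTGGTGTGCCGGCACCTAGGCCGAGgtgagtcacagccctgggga
The introns around these exons begin with gt and end with ag, except that the intron after BECN1 exon 5 begins with gc.

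Promoters were searched for TCACGTGA, the palindromic core of the element that TFEB and its relatives bind, because the list holds both TFEB and TFE3 and genes of the lysosome that they are known to drive. RefSeq promoter windows (GRCh38.p14, 250 bases before to 50 after a start site) were matched for 36 of the 40 genes by symbol. The windows of 4 of these 36 genes (11.1%) held the motif, against 321 of 27305 genes with a window (1.18%). The match is a description of the letters and was not tested. The motif is in capitals with 11 bases on each side.
ATG3 (chr3:112561940-112561969, minus strand): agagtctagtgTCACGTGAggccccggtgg
LAMP1, upstream copy (chr13:113297199-113297228, plus strand): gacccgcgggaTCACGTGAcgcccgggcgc
LAMP1, copy at the start site (chr13:113297226-113297255, plus strand): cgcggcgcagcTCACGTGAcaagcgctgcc
MCOLN1, upstream copy (chr19:7522571-7522600, plus strand): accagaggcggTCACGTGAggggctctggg
MCOLN1, copy nearer the start site (chr19:7522598-7522627, plus strand): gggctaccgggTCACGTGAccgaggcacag
CTSA (chr20:45891298-45891327, plus strand): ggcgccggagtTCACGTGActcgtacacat
The shorter core CACGTG, which TCACGTGA contains, was also found in CTSD and ATG14, which made 6 of 36 genes (16.7%) against 2396 of 27305 (8.77%). Among the 96 other autophagy and lysosome genes with a window, 9 (9.38%) held TCACGTGA and 23 (24.0%) held CACGTG, a larger share than among the members. No promoter window was matched for ATG4D, LAMP2, CTSB and HEXA.

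The library totals ran from 18042924 to 20428901 counts, and the targeted gene was examined before the members. RBM39 (chromosome 20, 35703609 to 35742312, GRCh38) had 441, 448 and 435 CPM (counts relative to a TMM-scaled library total) in shCtrl replicates 1, 2 and 3, and 266, 276 and 292 CPM in shRBM39. Every shRBM39 library was below every shCtrl library. The log2 fold change of RBM39 was −0.67 ± 0.04 (SE, n = 3 per group, edgeR quasi-likelihood test, Benjamini-Hochberg adjusted p = 1.24e-16), so transcript remained in the knockdown. The cell label was checked against marker genes. All 5 epithelial markers had at least 10 counts in every library, as did 3 of 5 colon and intestine markers, and so did 1 of 5 leukocyte, 2 of 5 fibroblast and 2 of 5 endothelial markers. PTPRC of the leukocyte list and KDR of the endothelial list had 0 counts in all 6 libraries, while the highest count in a library was 341 for the leukocyte list, 208 for the fibroblast list and 122 for the endothelial list. Summed levels in shCtrl and shRBM39 were 7.54 to 8.05 and 7.11 to 7.78 RPKM for leukocyte, 0.788 to 0.828 and 0.983 to 1.29 for fibroblast, and 0.451 to 0.597 and 0.761 to 0.950 for endothelial markers, against 2570 to 2720 and 2890 to 2990 for epithelial markers. The summed level of the 5 colon and intestine markers was lower in shRBM39 (89.7 to 94.2 RPKM) than in shCtrl (110 to 112 RPKM). Each sum was mostly a single marker, the highest having a mean of 104 RPKM in shCtrl and 89.9 in shRBM39. RPKM values do not carry the TMM factors. The part of these marker differences in the results below was not tested.

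Most of the 40 genes moved, and more of them fell than rose. In shRBM39, 17 genes were lower and 11 higher at an adjusted p under 0.05, and 12 did not pass. The largest falls were in TFEB, ULK2, CTSB and WIPI1 and in all 3 cargo receptors, and the largest rise was in the protease CTSL. The share called, 70.0%, stands beside 59.1% of all genes tested. Because the members were chosen with earlier results of these data known, this comparison and those that follow are descriptions. By direction, 42.5% of the members were lower against 29.9% of all genes, and 27.5% were higher against 29.2%. The changes were modest in size, with a median absolute log2 fold change of 0.25 for the members and 0.30 for all genes. A change of at least 0.5 on the log2 scale was called for 8 of the 40 members, 7 of them lower, against 25.3% of all genes. For 28 members (70.0%) the CPM ranges of shCtrl and shRBM39 did not overlap, against 63.3% of all genes. The median log2 fold change was −0.08 for the members and −0.01 for all genes. These shares of all genes also stand beside the counts given below for each group by role.

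These directions are relative to the scaling. With library totals alone in place of TMM factors, the median of all genes moved from −0.01 to −0.14, and the members split into 9 higher and 23 lower. The counts are from whole cultures, so fewer cells expressing a transcript and less of it per cell cannot be told apart. The exons of 23 members share bases with another row of the table, on the opposite strand for 21 of them. The strand setting of the counting is not given in the sources used here. Of 239 rows with all exons inside those of an opposite-strand row, 236 held counts, at a median density 0.732 of the surrounding row's. On the same strand 84 of 87 did, at 0.51. Values of overlapping genes are thus taken here to hold reads of the partner, to an extent not measured. Only some of the overlaps are named below.

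**Figure D1:**
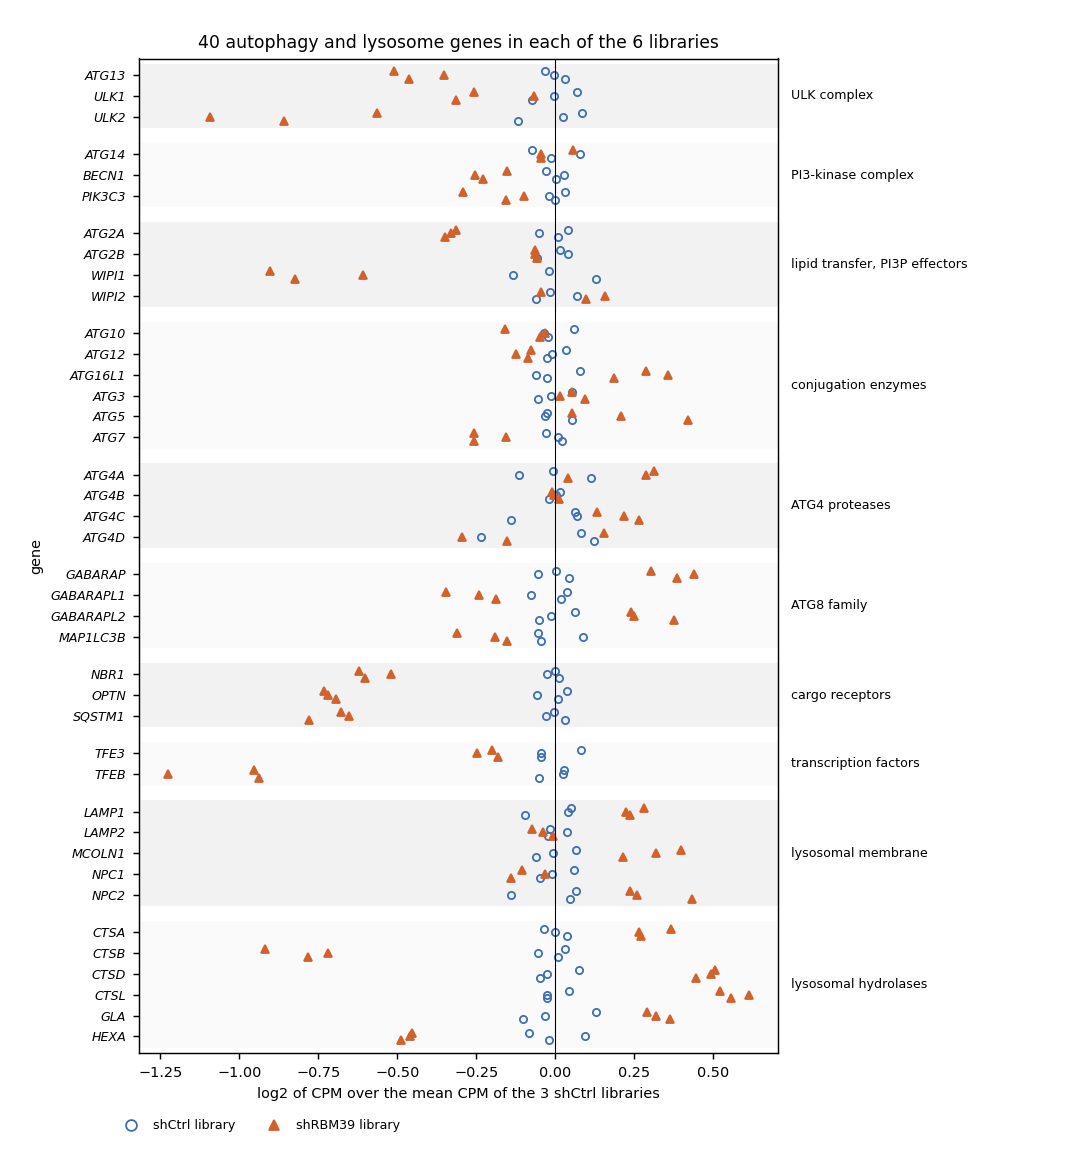
Log2 ratio of CPM in each library to the mean CPM of the 3 shCtrl libraries (x axis) for the 40 genes (y axis), grouped by role, with open circles for shCtrl and filled triangles for shRBM39. The triangles of SQSTM1, NBR1 and OPTN sit together left of their circles, TFEB lies farthest to the left, and CTSL and CTSD lie farthest to the right.

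The 3 genes of the ULK complex, which receives the starting signal for autophagy, were all lower. ULK2, a kinase and the close relative of ULK1, had 4.07, 3.91 and 3.54 CPM in shCtrl and 2.60, 1.80 and 2.12 CPM in shRBM39. These are small counts, from 31 to 83 per library, but the groups did not overlap. Its log2 fold change was −0.81 ± 0.17 (SE, edgeR adjusted p = 7.87e-05). ATG13, the adaptor that links the kinase to its partners, had 35.2, 35.9 and 36.8 CPM in shCtrl and 25.3, 28.2 and 26.1 CPM in shRBM39, a log2 fold change of −0.44 ± 0.06 (SE, edgeR adjusted p = 2.71e-08). ULK1 was at 28.1 ± 1.40 CPM in shCtrl and 24.3 ± 2.25 in shRBM39 (SD, n = 3), and its log2 fold change was −0.21 ± 0.06 (SE, edgeR adjusted p = 0.00512). For ULK1 the groups overlapped, because shRBM39 replicate 2 (26.8 CPM) lay just above shCtrl replicate 3 (26.7 CPM).

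Of the 3 listed genes of the lipid kinase complex, 2 were called lower. BECN1 had 77.4, 80.4 and 79.0 CPM in shCtrl and 70.9, 66.2 and 67.4 CPM in shRBM39, so the groups did not overlap, and its log2 fold change was −0.21 ± 0.04 (SE, edgeR adjusted p = 8.85e-05). BECN1 exons share 300 bases with PSME3 on the opposite strand, whose log2 fold change was 0.44. PIK3C3, the lipid kinase VPS34 itself, was at the edge of the threshold at −0.18 ± 0.08 (SE, edgeR adjusted p = 0.0471), and its call was kept in 4 of 13 alternative fits. After correction for GC content and exon length its log2 fold change was 0.00. ATG14, which directs the complex to autophagy, had a log2 fold change of −0.01 with a 95% interval from −0.14 to 0.12.

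Among the genes that expand the membrane, 2 of 4 were lower and none was higher, and library totals gave 3 lower. WIPI1, a PI3P-binding protein, had 14.6, 13.5 and 16.2 CPM in shCtrl and 7.91, 9.70 and 8.36 CPM in shRBM39. All 3 knockdown libraries were well below the controls, with a log2 fold change of −0.77 ± 0.09 (SE, edgeR adjusted p = 6.41e-09). WIPI1 shares 828 exon bases with ARSG on the opposite strand, whose log2 fold change was −0.80, and 127 bases with RP11-120M18.2, which had 12.6 times its counts and was at 0.28, so reads of these genes may be mixed. ATG2A, a protein that channels lipids into the membrane, fell from 31.3 ± 0.977 to 24.9 ± 0.320 CPM (SD, n = 3; log2 fold change −0.33 ± 0.06 SE, edgeR adjusted p = 6.80e-06). Its paralogue ATG2B was at −0.06 (95% interval from −0.20 to 0.07), lower at −0.19 with library totals and at 0.07 with the GC content and length correction. WIPI2, which recruits ATG16L1, was at 0.07 (−0.05 to 0.19), and at −0.05 with library totals.

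The 6 genes of the conjugation chains, enzymes and their partner proteins, split, with 2 higher and 1 lower, or 1 higher and 3 lower with library totals. ATG16L1 had 41.9, 38.1 and 39.0 CPM in shCtrl and 48.5, 50.8 and 45.2 CPM in shRBM39, which did not overlap (log2 fold change 0.28 ± 0.05 SE, edgeR adjusted p = 2.28e-05). ATG5, its partner in the conjugate, was at 0.24 ± 0.07 (SE, edgeR adjusted p = 0.00495). The ATG5 value rests on shRBM39 replicate 3 at 29.3 CPM, without which it was 0.13 (adjusted p = 0.108), and with library totals it was 0.11 (adjusted p = 0.180). ATG5 also shares 594 exon bases with AL022067.1 on its own strand, which was at 0.34. ATG7, the activating enzyme of both conjugation chains, was lower at −0.23 ± 0.07 (SE, edgeR adjusted p = 0.00493). It shares 1596 exon bases with VGLL4 on the opposite strand, whose log2 fold change was −0.34.

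The other 3 conjugation genes did not pass the test. ATG3, the enzyme that hands ATG8 proteins to lipid, was at 0.06 (95% interval from −0.02 to 0.14), at −0.06 with library totals, and was called higher at 0.13 once GC content and exon length were corrected for. ATG12, the small protein joined to ATG5, was at −0.10 (−0.21 to 0.02), although its groups did not overlap, called lower at −0.22 with library totals and at 0.03 with the GC content and length correction. ATG10, the enzyme that attaches ATG12, was at −0.08 (−0.16 to 0.00) and was called lower with library totals, at −0.20. ATG10 had the largest count of the list, up to 11991 in a library, while the next highest member reached 3937. Its exons share 374 bases with RPS23, a ribosomal protein gene on the opposite strand with 1.25 times its counts, so the level of ATG10 is uncertain.

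None of the 4 ATG4 proteases, which process the ATG8 family and later release it from membranes, passed the test with TMM scaling. ATG4B had 54.0, 53.5 and 52.7 CPM in shCtrl and 53.0, 53.3 and 53.8 CPM in shRBM39, which overlap throughout. Its log2 fold change was 0.00 with a 95% interval from −0.09 to 0.09, and with library totals it was called lower at −0.13. ATG4A was at 0.22 (0.00 to 0.44) and ATG4C at 0.20 (−0.03 to 0.44). ATG4D was at −0.07 (−0.32 to 0.17), and 341 of its exon bases lie in KRI1, which had 29.8 times its counts.

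The ATG8 family moved in both directions, and all 4 genes passed without overlap of the groups. For comparison, 59.1% of all genes tested passed and 63.3% had no overlap. GABARAP was at 44.3 ± 1.48 CPM in shCtrl and 57.5 ± 2.75 in shRBM39 (SD, n = 3), a log2 fold change of 0.38 ± 0.05 (SE, edgeR adjusted p = 2.97e-08). GABARAPL2 was also higher, at 80.9 ± 3.27 against 99.0 ± 5.37 CPM (0.29 ± 0.04 SE, edgeR adjusted p = 9.03e-07). MAP1LC3B, the LC3 protein most used as a marker of autophagosomes, was lower at 32.9 ± 1.85 against 28.3 ± 1.57 CPM (−0.22 ± 0.06 SE, edgeR adjusted p = 0.00180). GABARAPL1 was lower at −0.25 ± 0.08 (SE, edgeR adjusted p = 0.00531). GABARAP shares 691 exon bases with an overlapping row on its own strand, CTD-2545G14.7, whose log2 fold change was 0.35. MAP1LC3B shares 150 with FBXO31 on the opposite strand, which was at −0.52.

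The cargo receptors, which tether ubiquitin-marked cargo to ATG8 proteins, all fell, and by similar amounts. SQSTM1 (p62) had 95.3, 93.5 and 97.6 CPM in shCtrl and 59.7, 60.7 and 55.7 CPM in shRBM39, and its log2 fold change was −0.70 ± 0.04 (SE, edgeR adjusted p = 1.30e-15). NBR1, a relative of SQSTM1 that also takes up aggregates, had 116, 114 and 117 CPM in shCtrl and 75.5, 80.9 and 76.5 CPM in shRBM39, and its log2 fold change was −0.57 ± 0.04 (SE, edgeR adjusted p = 4.22e-14). OPTN (optineurin), a receptor for damaged mitochondria and bacteria, had 154, 144 and 151 CPM in shCtrl and 90.3, 91.2 and 92.7 CPM in shRBM39, and its log2 fold change was −0.71 ± 0.04 (SE, edgeR adjusted p = 6.80e-17). For all 3 receptors the gap between the groups was far wider than the spread within them, and all 3 stayed called and lower in all 13 alternative fits. SQSTM1 shares 1582 exon bases with C5orf45 on the opposite strand, which was at −0.49. NBR1 shares 463 with RP11-242D8.1 on the opposite strand, which was at −0.63.

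Both transcription factors were lower. TFEB, the main driver of lysosomal gene expression, had 6.65, 6.64 and 6.30 CPM in shCtrl and 3.37, 2.79 and 3.41 CPM in shRBM39. The groups stood far apart, and TFEB fell to 0.491 of its control level, the largest change of the 40 genes (log2 fold change −1.03 ± 0.13 SE, edgeR adjusted p = 2.20e-08). TFE3 was at 35.6 ± 1.85 CPM in shCtrl and 30.8 ± 0.728 in shRBM39 (SD, n = 3; −0.21 ± 0.05 SE, edgeR adjusted p = 0.00149). Its fall on the log2 scale was smaller than that of TFEB, a difference between genes that was not tested.

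Of the 5 genes of the lysosomal membrane and cholesterol export, 3 were higher and none was lower under TMM scaling, while library totals gave 2 higher and 2 lower. LAMP1, the most abundant glycoprotein of the lysosomal membrane, had 63.7, 63.2 and 57.6 CPM in shCtrl and 74.7, 71.9 and 72.4 CPM in shRBM39 (log2 fold change 0.25 ± 0.05 SE, edgeR adjusted p = 1.87e-05). NPC2, the luminal carrier that passes cholesterol to NPC1, was at 0.32 ± 0.08 (SE, edgeR adjusted p = 0.000575). MCOLN1, a calcium channel of the lysosome, was at 0.31 ± 0.09 (SE, edgeR adjusted p = 0.00361), but at 0.19 with library totals (adjusted p = 0.0721). LAMP2 was at −0.04 (95% interval from −0.15 to 0.08) and NPC1 at −0.09 (−0.21 to 0.02), and these were the genes called lower with library totals, at −0.16 and −0.22. LAMP2 was at 0.02 with the GC content and length correction. LAMP1, MCOLN1 and CTSA, whose promoter windows hold TCACGTGA, were higher while TFEB was lower. ATG3, which also holds the motif, was not called. A link between the motif, TFEB and the levels of these genes was not tested.

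All 6 hydrolases passed the test without overlap of the groups, 4 higher and 2 lower. Again, 59.1% of all genes tested passed and 63.3% had no overlap. CTSB (cathepsin B), a cysteine protease, had 195, 184 and 192 CPM in shCtrl and 101, 116 and 111 CPM in shRBM39, and its log2 fold change was −0.80 ± 0.04 (SE, edgeR adjusted p = 2.45e-17). CTSL (cathepsin L), a protease of the same class, went the other way, with 23.9, 22.8 and 22.8 CPM in shCtrl and 33.3, 35.5 and 34.1 CPM in shRBM39 (0.57 ± 0.06 SE, edgeR adjusted p = 1.57e-10). Among the 6 listed hydrolases, CTSB thus had the strongest fall and CTSL the strongest rise.

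CTSD, the aspartic protease of the lysosome, rose from 64.3 ± 2.94 to 89.8 ± 1.92 CPM (SD, n = 3; 0.48 ± 0.04 SE, edgeR adjusted p = 1.57e-11). It shares 1304 of its exon bases with RP11-295K3.1 on the same strand, which was at 0.49. GLA, the alpha-galactosidase lost in Fabry disease, was at 0.33 ± 0.06 (SE, edgeR adjusted p = 4.30e-05). CTSA, which protects other lysosomal enzymes, was at 0.30 ± 0.06 (SE, edgeR adjusted p = 3.95e-05). HEXA, the subunit of hexosaminidase lost in Tay-Sachs disease, fell from 28.2 ± 1.74 to 20.4 ± 0.283 CPM (SD, n = 3, log2 fold change −0.47 ± 0.06 SE, edgeR adjusted p = 8.69e-08). HEXA shares 1273 exon bases with RP11-106M3.3 on the opposite strand, which was at −0.42. It also shares 617 with RP11-106M3.2 on its own strand, which was at −0.47.

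**Figure D2:**
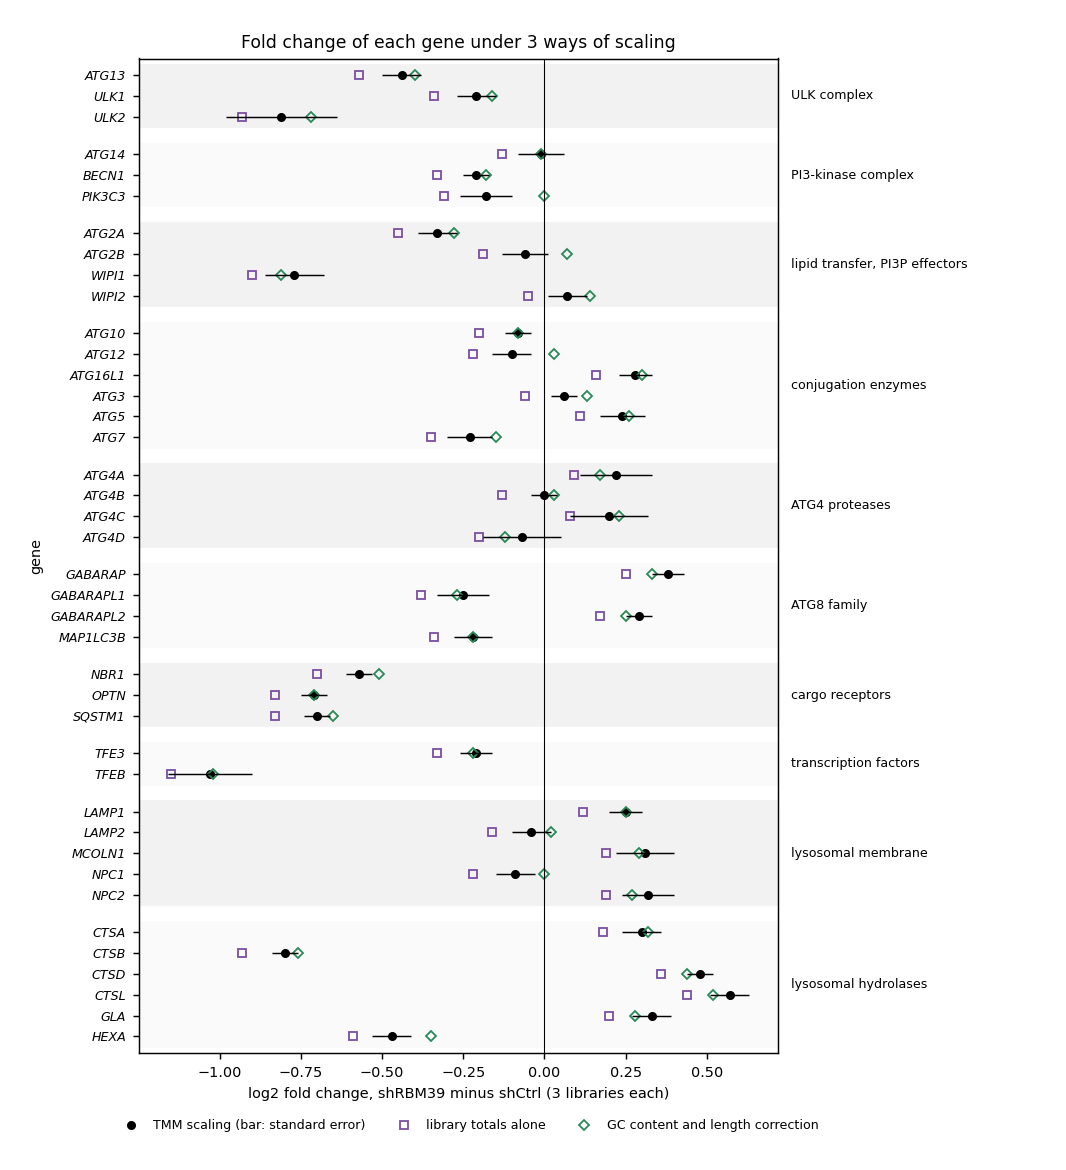
Log2 fold change of shRBM39 over shCtrl (x axis, 3 libraries each) for the 40 genes (y axis) with TMM scaling and its standard error (black circles), library totals alone (open squares) and a correction for GC content and length (open diamonds). The squares lie to the left of the circles throughout, and the genes that change side of 0 are those close to it, such as WIPI2, ATG3, ATG12 and LAMP2.

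Of the 28 called members, 25 stayed called with the same sign in all 13 alternative fits, 16 of them lower and 9 higher. The exceptions were PIK3C3, ATG5 and MCOLN1. The plot of fold changes under 3 ways of scaling shows that the falls of TFEB, ULK2, CTSB, WIPI1, SQSTM1, OPTN and NBR1 and the rise of CTSL were larger than the distance between scalings.

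Levels of different genes were compared per exon length, as RPKM (reads per kilobase of exon, relative to the library total) in shCtrl. ATG10 stood first at 109 ± 2.94 RPKM (SD, n = 3), a value that holds RPS23 reads to an unknown extent. OPTN (30.3 ± 0.852), GABARAPL2 (27.8 ± 0.909), CTSB (26.8 ± 0.600), CTSD (21.4 ± 0.796) and GABARAP (20.4 ± 0.658) followed. The lowest were ULK2 (0.407 ± 0.0265), PIK3C3 (0.944 ± 0.00984), TFEB (1.21 ± 0.0349) and ATG2B (1.27 ± 0.0446), and the median member was at 4.74 RPKM. TFEB was thus far below TFE3 at 8.66 ± 0.371 RPKM. Within the ATG8 family GABARAPL2 and GABARAP were above MAP1LC3B (6.45 ± 0.407) and GABARAPL1 (3.94 ± 0.135).

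**Figure D3:**
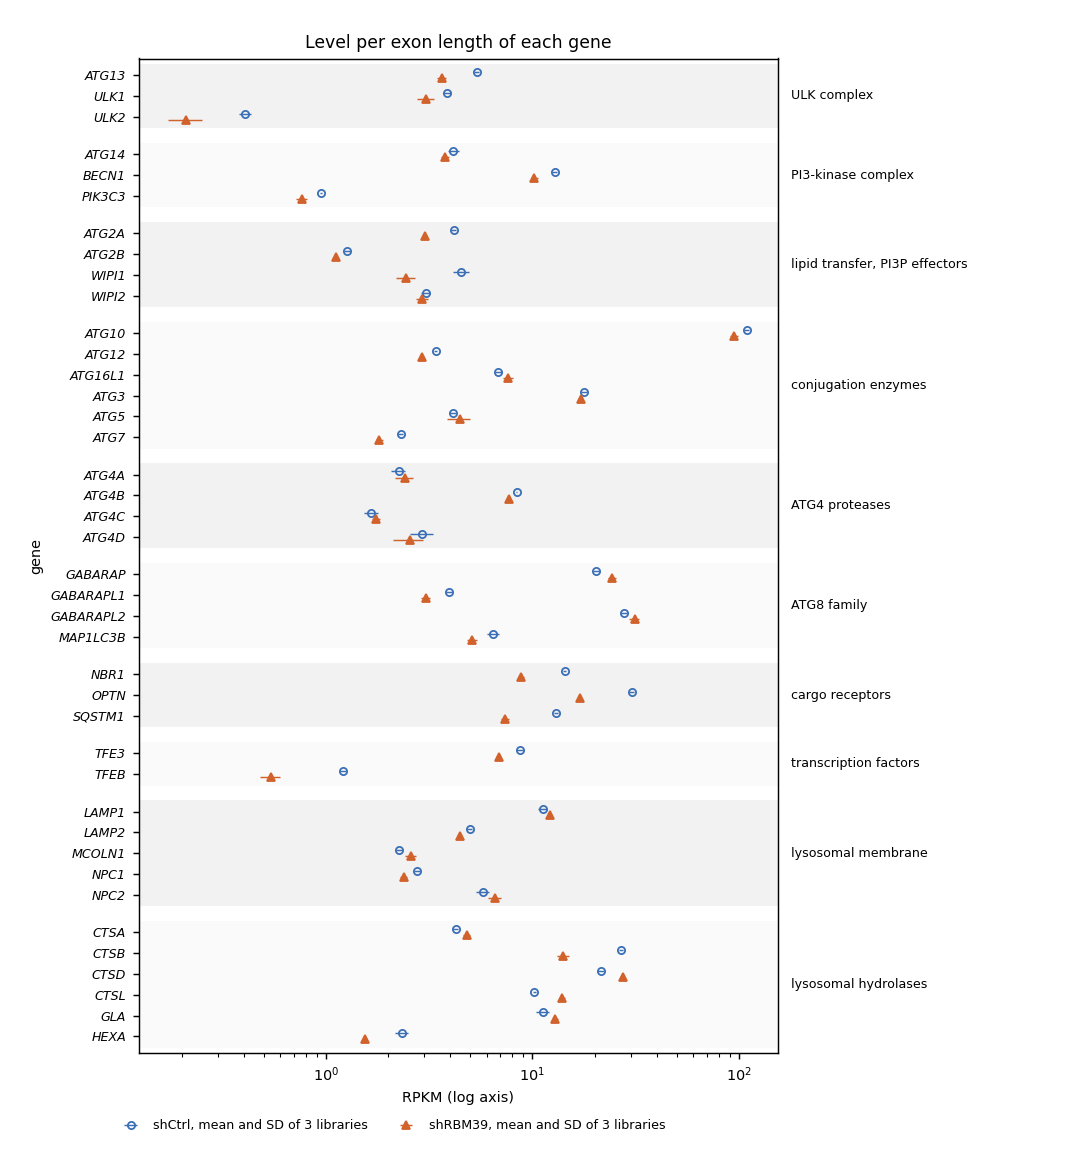
RPKM (x axis, log scale) of the 40 genes (y axis) in shCtrl (open circles) and shRBM39 (filled triangles), mean and SD of 3 libraries. RPKM divides by library totals, without the TMM factors. ULK2 lies at the low end and ATG10, which shares exon bases with RPS23, at the high end.

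The splicing records came from the program rMATS, and the 3 values of each of its groups are called group 1 and group 2 because the table holds no key to the knockdown. The table lists only events that the authors selected on their own p-value and for a difference of at least 0.1. The levels below are thus a description with no test. Such a selection favours records whose groups do not overlap, so the lack of overlap is no separate evidence. A record was listed for 3 of the 40 members (7.5%) against 6.54% of all genes tested. The inclusion level is an estimate of the share of an event's transcripts that carry the exon, from reads divided by effective length.

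BECN1 had 3 of the 5 records, all with lower inclusion in group 1. Exon 10 was included at 0.525, 0.421 and 0.426 in the libraries of group 1 and at 0.781, 0.911 and 0.743 in those of group 2 (group 1 minus group 2, −0.354). Exon 11 was included at 0.724, 0.656 and 0.565 against 0.919, 0.958 and 0.923 (−0.285). The groups did not overlap in either record. Exon 10 rests on 21 to 46 reads per library and exon 11 on 75 to 105. The records are not independent, because both count the same skipping reads, those that join exon 9 to exon 12, with 16, 15 and 22 reads in group 1 and 4, 2 and 4 in group 2. Transcripts with that junction lack exons 10 and 11 together, 204 bases or 68 codons, which keeps the reading frame, whereas each exon alone is not a multiple of 3 bases. Despite the shared skipping reads, the mean levels in group 1 were 0.457 for exon 10 and 0.648 for exon 11. Neither is therefore an exact share of transcripts.

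BECN1 exon 5 was included at 0.848, 0.618 and 0.746 in the libraries of group 1 and at 0.935, 1.0 and 0.969 in those of group 2 (group 1 minus group 2, −0.231). Its skipping reads join exon 4 to exon 7, with 6, 12 and 8 reads in group 1 and 2, 0 and 1 in group 2. That junction leaves out exons 5 and 6, 228 bases or 76 codons, again in frame. Exon 5 is the exon shown above with a gc donor.

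ATG16L1 exon 8 was included at 0.00, 0.00 and 0.112 in the libraries of group 1 and at 0.134, 0.230 and 0.230 in those of group 2 (group 1 minus group 2, −0.161). The levels did not overlap, but they rest on 10 to 20 reads per library, with 0, 0 and 2 inclusion reads in group 1 and 2, 6 and 3 in group 2. Its 57 bases are 19 codons. ATG4B was listed with exons 3 and 4 as alternatives to each other. The level of exon 3 against exon 4, as rMATS defines inclusion on the plus strand, was 0.440, 0.451 and 0.375 in the libraries of group 1. It was 0.277, 0.365 and 0.260 in those of group 2 (group 1 minus group 2, 0.121), from 190 to 237 reads per library. The canonical transcript carries both exons, between exons 2 and 5, so transcripts with both could give reads to either side. The level is therefore not an exact share of transcripts with exon 3. Both exons are multiples of 3 bases. ATG4B was thus a gene with a splicing record and a total count that was not called, while BECN1 was lower and ATG16L1 higher in total count.

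**Figure D4:**
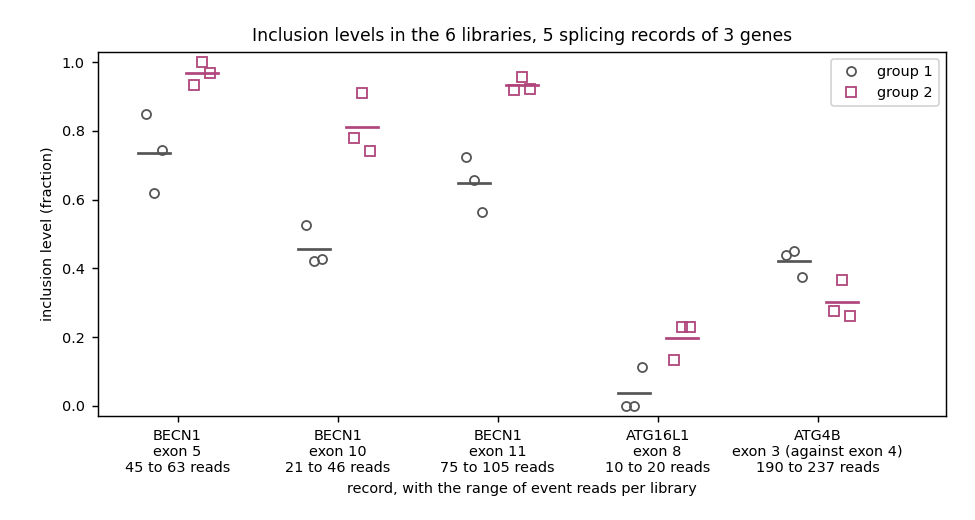
Inclusion level (y axis, fraction from 0 to 1) in each of the 6 libraries for the 5 splicing records of BECN1, ATG16L1 and ATG4B (x axis, with event reads per library), with circles for group 1, squares for group 2 and bars for means. No record has overlapping groups, which the authors' selection of events favours. The BECN1 and ATG16L1 records are lower in group 1, while ATG4B exon 3 is higher.

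The members were set beside 131 other genes of the same pathways, of which 122 were tested. In shRBM39, 40 of these were higher and 34 lower, with a median log2 fold change of −0.02. The share called, 60.7% (32.8% higher and 27.9% lower), was close to the 59.1% of all genes tested (29.2% and 29.9%). With library totals 27 were higher and 54 lower.

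The V-ATPase is the proton pump that acidifies the lysosome, and 13 of its 20 subunit genes were called higher and 2 lower, with a median of 0.32. Beside this and the lists below stand 29.2% higher and 29.9% lower among all genes tested. Library totals gave 11 higher and 5 lower. ATP6V1C1 (0.65 ± 0.07 SE, edgeR adjusted p = 1.89e-09) and ATP6V1E1 (0.60 ± 0.06 SE, 5.34e-11), both of its cytosolic part, rose most, and ATP6AP1, an accessory subunit, was lower at −0.22 ± 0.05. ATP6V0A1, a membrane subunit, was lower at −0.21 ± 0.06 and lost its call in 1 of the 13 alternatives.

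Among 29 other autophagy genes tested, 9 were higher and 10 lower, or 5 and 16 with library totals. RB1CC1 (FIP200), which holds the ULK complex together, was lower, at 42.6 ± 2.30 against 25.8 ± 1.02 CPM (SD, n = 3; −0.72 ± 0.06 SE, edgeR adjusted p = 2.75e-13). ATG101, the remaining subunit of that complex, did not pass the test at −0.08 ± 0.04 (SE, edgeR adjusted p = 0.0809), and its groups overlapped. It is named outside the rule, after its values were seen. BNIP3L, a mitophagy receptor, was lower at −0.83 ± 0.07 (SE, edgeR adjusted p = 3.58e-12). PIK3R4 (VPS15), the regulatory subunit that sits with PIK3C3 and BECN1, was higher at 0.65 ± 0.08 (SE, edgeR adjusted p = 2.54e-08). VAMP8, which acts in the fusion of autophagosomes with lysosomes, was higher at 0.41 ± 0.05.

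Among 32 other lysosomal hydrolases and activators tested, 7 were higher and 13 lower, or 5 and 16 with library totals, with a median of −0.15. The 6 hydrolases of the list had a median of 0.32. The cathepsins CTSV (0.79 ± 0.07 SE, edgeR adjusted p = 2.68e-12) and CTSH (0.74 ± 0.11 SE, 8.14e-07) were higher, as CTSL was. MANBA, a mannosidase (−0.74 ± 0.11), and GALNS, a sulfatase (−0.67 ± 0.10), were lower.

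Of 17 other membrane genes tested, 3 were higher and 5 lower, or 0 and 7 with library totals. IGF2R, the larger receptor that sorts hydrolases to the lysosome, fell from 166 ± 4.94 to 115 ± 4.91 CPM (SD, n = 3; −0.53 ± 0.04 SE, edgeR adjusted p = 1.52e-13). M6PR, the smaller sorting receptor, was higher at 0.22 ± 0.04, a call lost in 1 of 13 alternatives. SIDT2 was lower at −0.74 ± 0.10. CTNS, the cystine exporter, was higher at 0.28 ± 0.11 with its call kept in 6 of 13 alternatives.

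Of 24 genes that control TORC1 and TFEB at the lysosome, 8 were higher and 4 lower, or 6 and 10 with library totals. DEPTOR, an inhibitory partner of mTOR, fell from 7.64 ± 0.501 to 2.73 ± 0.261 CPM (SD, n = 3; −1.48 ± 0.13 SE, edgeR adjusted p = 6.71e-12). LAMTOR4, part of the anchor of TORC1 on the lysosome, rose from 39.6 ± 2.91 to 72.8 ± 1.85 CPM (0.88 ± 0.05 SE, edgeR adjusted p = 6.39e-17). RRAGB, a Rag GTPase, was higher at 0.76 ± 0.11, and FLCN, which acts on the Rag GTPases that hold TFEB in the cytoplasm, was lower at −0.44 ± 0.08.

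**Figure D5:**
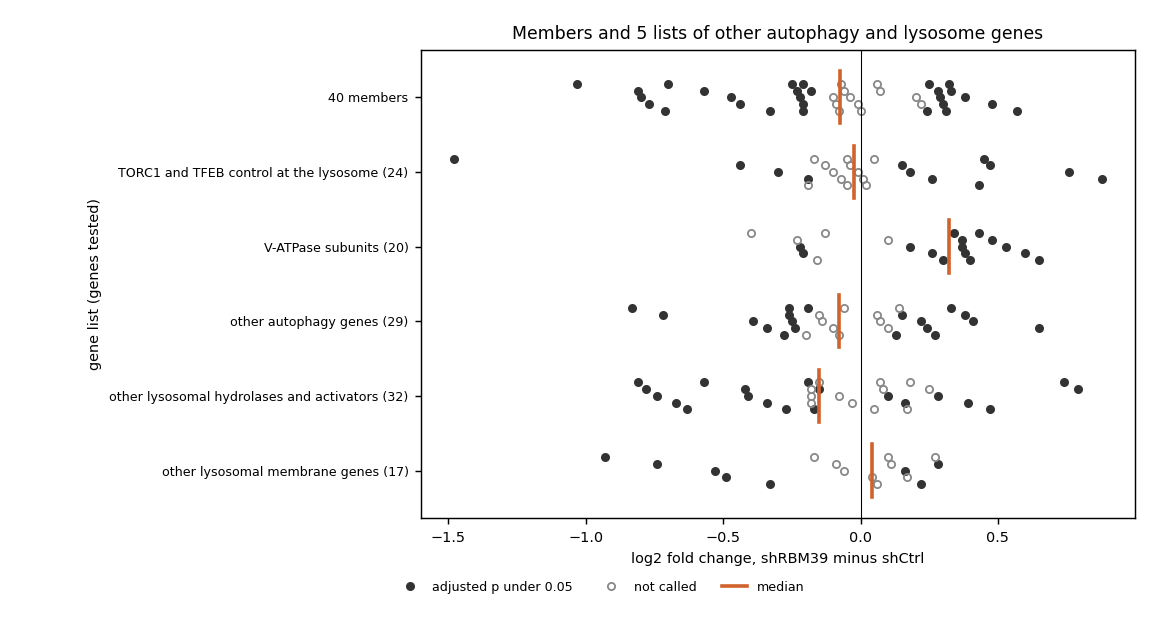
Log2 fold change of shRBM39 over shCtrl (x axis) for the 40 members and for 5 lists of other genes of the same pathways (y axis), with filled circles for an adjusted p under 0.05, open circles for the rest and a bar for the median. The V-ATPase list has its median at 0.32, while the medians of the other lists lie between −0.15 and 0.04.

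Among these other genes, 11 of the 122 tested had a splicing record, where 6.54% of all genes tested had one. Of their 13 records, 6 had groups that did not overlap. The share of such records in the whole list was not computed, and the authors' selection favours them. GUSB, a lysosomal glucuronidase, had an exon of 153 bases included at 0.040, 0.062 and 0.054 in the libraries of group 1 and at 0.408, 0.479 and 0.512 in those of group 2, from 8 to 23 reads per library. It was chosen after its values were seen.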

How the data were processed

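mRNA was sequenced from 3 shCtrl and 3 shRBM39 cultures of SW480 cells, and the sample titles gave groups and replicate numbers. The labels hold a single control group, so NC columns were taken as shCtrl. Unnormalised read counts per merged gene symbol, and RPKM values computed from them, were deposited by the authors. The submitters' processing notes name GRCh38, Trimmomatic 0.36, STAR 2.5.3a, featureCounts from Subread 1.5.1 and edgeR 3.12.1. Strand setting and the treatment of multi-mapped reads and of unique identifiers are not given in the sources used here, which can affect overlapping genes and paralogues. Of 1480 exons of the members in the table, 89.7% were identical to a GENCODE v44 exon.

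The authors deposited rMATS records with inclusion and skipping read numbers, inclusion levels as fractions, and effective lengths, here treated as a score. Their columns of p-values, FDR and group differences were not used. The authors also deposited counts of the events tested, 31743 in all.

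Differences between groups were tested by edgeR 4.0.16 under R 4.3.3, after filterByExpr and TMM scaling, with the quasi-likelihood model of shRBM39 against shCtrl. P-values are two-sided and Benjamini-Hochberg adjusted over 18243 genes, called under 0.05. CPM values carry TMM factors. Intervals at 95% are 1.96 standard errors. P-values measure the spread between these libraries. Within groups, no pair of libraries agreed within sampling noise. Alternatives were DESeq2 1.42.0, other scalings and filters, a replicate block, each library left out, and a correction for GC content and length. The members and lists were chosen with earlier results of these data known. All 40 members are named, and each other list gave the 2 genes that rose most and the 2 that fell most among called genes of at least 5 CPM whose groups did not overlap. Sequences are from GRCh38 and RefSeq.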

Additional observations from a re-analysis of the deposited data

How the results depend on the processing

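The count of called members was 27 to 32 over all alternatives, against 28. With library totals alone, 54 other pathway genes were lower, against 34, since the median of all genes moved from −0.01 to −0.14. Members that changed sign were uncalled on both sides. They were WIPI2 at −0.05 and ATG3 at −0.06 with library totals, ATG2B at 0.07, ATG12 at 0.03, ATG4B at 0.03 and LAMP2 at 0.02 with the GC content and length correction, and ATG14 at 0.00 and ATG4B at 0.01 with DESeq2 and without the filter on low counts. With each library left out in turn, ATG14 ran from −0.04 to 0.03, ATG4B from −0.01 to 0.01 and ATG4D from −0.21 to 0.02. The same fits gave PIK3C3 values from −0.22 to −0.13 and 27 to 28 called members. ATG5 lost its call, and ATG4A gained one at 0.31 (edgeR adjusted p = 0.0310), without shRBM39 replicate 3. RBM39 ran from −0.70 to −0.63 with each library left out, and was at −0.79 with library totals and −0.54 with the GC content and length correction. Replicate numbers did not pair the libraries, with correlations of deviations from −0.0403 to 0.0405. With the replicate block 27 members and 75 other pathway genes were called, and PIK3C3 had an adjusted p of 0.0536. Without the length correction the difference of BECN1 exon 11 was −0.174 against −0.285. Read depth limits ULK2, ATG16L1 exon 8 and most records of the other genes, of which only 3 of 13 reached 20 reads throughout. The causes of these changes were not tested.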
